A study of Mus musculus with 6 samples.

Results

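Flt3+ gated cells were 287 of the 12139 single cells kept from a sort of CD169-lineage lymph node cells. A cell entered this set if its transcriptome held at least 1 unique molecular identifier (UMI, 1 captured RNA molecule) of Flt3, at least 1 UMI of Cd209a or Clec10a, at most 4 UMIs of C1qa, C1qb and C1qc together, and no UMI of Xcr1, Ccr7, Cd3e or Cd79a. The working label for these cells was conventional type 2 dendritic cells. They were chosen by these measured counts and were compared with the 1387 cells that met the same conditions but held no Flt3 UMI, called Flt3 = 0 cells here, and between immunized and unimmunized mice. The genes of the gate chose the cells, so their values are described and were not tested.

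The sort took live CD11b+TOM+ cells from the inguinal lymph nodes of CD169Tom mice (Cd169Cre/+.Tdtomatofl/fl), in which Cre under the Siglec1 (CD169) promoter drives recombination of a tdTomato reporter (TOM). All 4 mice carried both alleles: 2 were unimmunized and 2 had received hen egg lysozyme (HEL) 9 days before. For mice given transferred lymphocytes, the methods of the study describe HEL joined to an ovalbumin peptide, under the skin and in adjuvant, and the sources used here do not give which form these mice received. Cells of each mouse were stained with 1 hashtag antibody and a shared panel of 6 tagged antibodies (CITE-seq), pooled, and split over 2 droplet captures. The label is permanent, so a TOM+ cell need not have expressed Siglec1 at the time of the sort.

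Flt3 is the receptor tyrosine kinase for Flt3 ligand, the growth factor on which dendritic cells and their committed precursors depend. Conventional dendritic cells carry the transcription factor Zbtb46 and present peptides on MHC class II. Those of type 2 express CD11b and Sirpa, lean on Irf4 and Klf4, and mainly activate CD4 T cells, whereas type 1 cells carry Xcr1 and Clec9a. Monocytes and their progeny depend on Csf1r, carry much lysozyme (Lyz2), and in inflamed lymph nodes take on CD11c, MHC class II and the lectins Cd209a and Clec10a, so these lectins alone do not part the lineages.

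Cells were assigned to mice by the hashtag oligonucleotides, and their surface was read with antibody oligonucleotides. The hashtag sequences are shown because every comparison between mice rests on them, and the CD11c and Ly-6c tags because these antibodies separated the Flt3 classes in every mouse. Hashtags 1 and 2 marked unimmunized mice 1 and 2, and Hashtags 3 and 4 marked immunized mice 1 and 2.
Hashtag 1: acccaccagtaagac
Hashtag 2: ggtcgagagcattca
Hashtag 3: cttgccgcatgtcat
Hashtag 4: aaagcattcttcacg
CD11c antibody: gttatggacgcttgc
Ly-6c antibody: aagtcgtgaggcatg

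The cells were unevenly spread over the mice. Unimmunized mice 1 and 2 gave 69 and 13 Flt3+ gated cells, and immunized mice 1 and 2 gave 171 and 34. The Flt3 = 0 cells numbered 185, 31, 577 and 594 in the same order, which is kept for every run of 4 values below. Counts were summed per mouse and class into 8 libraries, which held 818084, 145364, 2197248 and 540520 UMIs for the Flt3+ gated cells and 1643332, 274269, 6434669 and 8085057 UMIs for the Flt3 = 0 cells. Levels are given as CPM, the counts of a gene per 1000000 UMIs of such a library. In summed libraries, fewer cells of a type and less RNA per cell cannot be told apart. In the smallest library, that of the 13 cells, 1 UMI was worth 6.88 CPM, so low values of unimmunized mouse 2 rest on few molecules. The Flt3+ gated cells were also the deeper ones, with medians of 11462, 10402, 12446 and 15078 UMIs per cell against 8855, 8286, 11124 and 13066.

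Of the 896 kept cells with any Flt3 UMI, 383 held Cd209a or Clec10a and 513 held neither. Flt3 counts were low: 157 of the members had 1 UMI, 65 had 2 and 65 had 3 or more, up to 16. Clec10a, a galactose-type lectin, was seen in 226 members and Cd209a, a DC-SIGN homologue, in 162, with both in 101, Clec10a alone in 125 and Cd209a alone in 61. Just inside the gate were 53 members with a single UMI of the lectins and 5 members with 4 C1q UMIs. Just outside were 5 cells with 5 C1q UMIs. In all, 42 cells were left out by C1q alone, 17 by Xcr1, 13 by Ccr7, 7 by Cd3e and 6 by Cd79a alone.

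The gate genes themselves differed in how they tracked Flt3. Flt3 (chromosome 5, 147330741 to 147400489, minus strand of mm10, GENCODE M21) stood at 235, 268, 140 and 96.2 CPM in the members and is 0 in the comparison cells by construction. Cd209a (chromosome 8, 3743397 to 3748984, minus strand) was at 683, 378, 249 and 207 CPM against 177, 47.4, 41.3 and 10.9 CPM in the Flt3 = 0 cells. Clec10a (chromosome 11, 70156197 to 70170834, plus strand) was at 318, 103, 376 and 250 CPM against 268, 204, 261 and 184 CPM. Cd209a was thus higher in the members of every mouse, while Clec10a overlapped between the classes and carried most of the Flt3 = 0 cells into the gate. Cd209a, Cd209d and Cd209e are neighbouring paralogues, and the 3' reads may not part them fully.

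Flt3 RNA was sampled thinly, and depth differed between cells. When every cell was thinned to 2000 UMIs, Flt3 remained in 30.0% of the members, in 24.7% of the Xcr1+ cells and in 20.4% of cells with Ccr7 and Fscn1, the other dendritic populations of the sort. In populations that should lack the gene it was found in 0.353% of Cd3e+ T cells (1.14% before thinning, median 6533 UMIs), 1.99% of Cd79a+ B cells (9.54% before thinning, median 4639 UMIs) and 0.486% of C1q-rich macrophages (2.27% before thinning, median 14504.5 UMIs). Among all 1674 gated cells of both classes 17.1% held a Flt3 UMI before thinning. A cell counted as Flt3 = 0 may therefore have carried Flt3 RNA that was not sampled.

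The conventional dendritic part of the label was checked with Zbtb46, which the gate did not use, and it held for part of the members. Zbtb46 was as frequent in the Xcr1+ cells, so it does not bear on the type 2 part, for which Sirpa, Mgl2 and other genes are given below. Zbtb46 (chromosome 2, 181387762 to 181459426, minus strand) was found in 37.6% of the members at a median depth of 12440 UMIs, in 5.62% of the Flt3 = 0 cells at 11725 UMIs, and in 2.64% of the Cd3e+ T cells at 6533 UMIs. At 2000 UMIs per cell these shares were 9.41%, 1.32% and 0.530%, and the Xcr1+ cells gave 10.7%. However, 138 of the 287 members held more than 50 Lyz2 UMIs per 10000 UMIs, and these cells summed to 16.9 CPM of Zbtb46 against 81.5 CPM in the other 149. Because the label was not shown to hold for all members, the cells are called Flt3+ gated cells throughout.

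Flt3+ gated cells differed from Flt3 = 0 cells of the same gate in 703 of 8558 genes tested, at a Benjamini-Hochberg adjusted p under 0.05 in edgeR's quasi-likelihood test. Of these, 301 were higher (3.52% of the genes tested) and 402 were lower (4.70%). With scaling by library size only, 346 were higher and 329 were lower. Zbtb46, H2-Oa and Stmn1 were among the genes that rose, and Lyz2, Csf1r and Isg15 among those that fell. Without unimmunized mouse 1 the unimmunized arm held 1 library per class, assumed to vary like the others, and 0 of 9177 genes passed, with 1353 at an unadjusted p under 0.05. Without unimmunized mouse 2, 338 genes passed. With the mouse as a block, since both classes came from the same animals, 1444 genes passed (16.9%), among them all 703. The blocked fit left 2 residual degrees of freedom and gave all genes 1 shared estimate of the spread beyond their abundance trend, so its p-values do not draw on the spread of a single gene between mice.

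**Figure D1:**
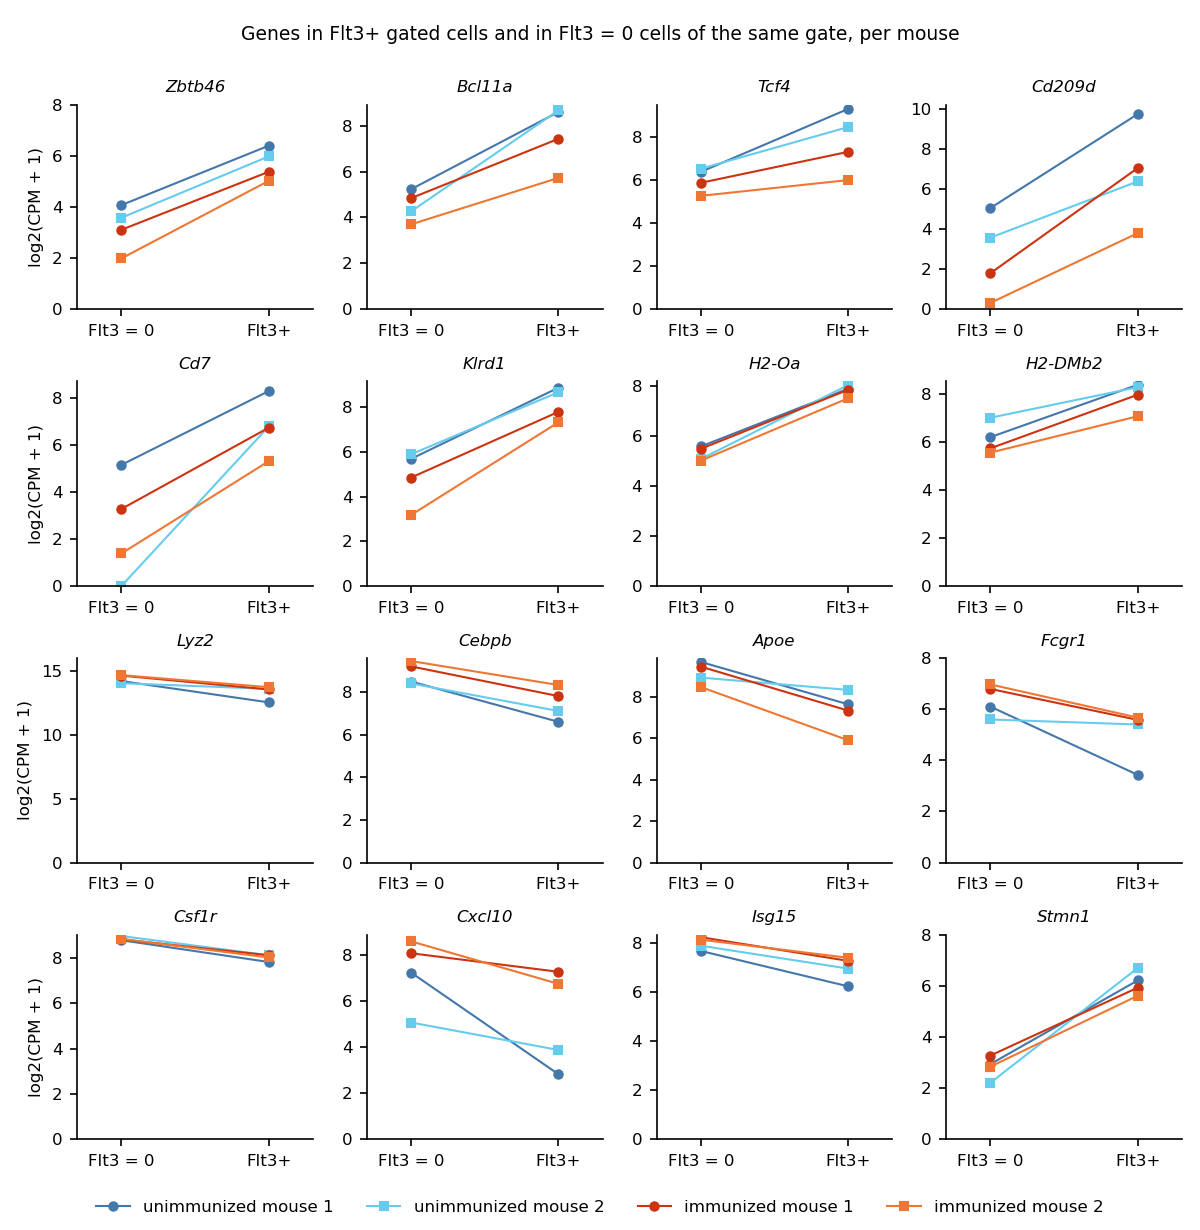
Level of 16 genes in the summed libraries of the Flt3 = 0 cells (left) and the Flt3+ gated cells (right) of each mouse, as log2(CPM + 1). Each line joins the 2 classes of 1 mouse: in all 4 mice, the dendritic cell genes, H2-Oa, H2-DMb2 and Stmn1 lie higher on the right, and Lyz2, Cebpb, Apoe, Fcgr1, Csf1r, Cxcl10 and Isg15 lie lower.

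Of the 20 conventional dendritic cell genes, 10 rose and 2 fell, against 3.52% and 4.70% of all genes. Every list count of this comparison below is to be read beside these 2 shares. The median difference was 0.79 on the log2 scale against -0.00 for all genes. Zbtb46 was at 83.1, 61.9, 40.5 and 31.5 CPM in the Flt3+ gated cells and at 15.8, 10.9, 7.62 and 2.97 CPM in the Flt3 = 0 cells. The lowest Flt3+ library was above the highest Flt3 = 0 library, and the difference was 2.56 ± 0.29 on the log2 scale (SE, edgeR adjusted p = 0.000279). Bcl11a (chromosome 11, 24078056 to 24174123, plus strand), a transcription factor of dendritic cell and B cell development, was at 386, 406, 171 and 51.8 CPM against 36.5, 18.2, 27.7 and 12.0 CPM. Its classes did not overlap either, at a difference of 3.07 ± 0.34 (edgeR adjusted p = 0.000266).

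Other members of this list followed. Tcf4, an E protein best known from plasmacytoid dendritic cells, was at 630, 351, 157 and 62.9 CPM against 82.2, 91.2, 57.5 and 37.5 CPM, a difference of 1.90 ± 0.26 (edgeR adjusted p = 0.00089). It was higher within every mouse, although the level of immunized mouse 2 lay within the range of the Flt3 = 0 libraries. The inhibitory receptor Btla rose by 2.73 ± 0.32, the corepressor Cbfa2t3 by 1.34 ± 0.18, the peptidase Dpp4 by 1.15 ± 0.19 and the stem cell factor receptor Kit by 1.55 ± 0.27 on the log2 scale, with edgeR adjusted p-values from 0.000391 to 0.00331. Irf4 rose by 2.06, but its 6.88 CPM in unimmunized mouse 2 was a single UMI. Itgax, which encodes CD11c, was 0.33 higher with an edgeR adjusted p of 0.246, so its RNA did not pass the test. The 2 genes that fell were Zeb2 (-0.57) and Sirpa (-0.46), named after their values were seen. In capture 2 alone neither passed (-0.44 and -0.30, edgeR adjusted p = 0.271 and 0.309). In capture 1 alone Sirpa did not pass (-0.57, edgeR adjusted p = 0.0753). Sirpa also did not pass without cells that held UMIs of other lineages (-0.40, 0.326). Against Flt3 = 0 cells drawn to match the members in UMIs per cell it did not pass either (-0.40, 0.0700). Sirpa is a usual marker of type 2 cells and was at 359, 385, 385 and 414 CPM in the Flt3+ gated cells.

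Of the genes used to tell subsets of type 2 cells apart, 7 of the 11 tested rose and none fell, out of 18 listed. The paralogues Cd209d (chromosome 8, 3871824 to 3878555) and Cd209e (chromosome 8, 3847965 to 3854309) differed most, by 5.11 ± 0.69 and 5.59 ± 0.54 on the log2 scale (edgeR adjusted p = 0.000822 and 0.000167). Cd209d was at 859, 82.6, 132 and 12.95 CPM against 32.3, 10.9, 2.49 and 0.247 CPM. It was higher in every mouse but spread widely between mice, with most of its RNA in unimmunized mouse 1. Cd209e was at 103, 48.2, 14.6 and 3.70 CPM, and no Flt3 = 0 library held more than 1.83 CPM. The surface molecule Cd7 rose by 3.55 ± 0.47 (edgeR adjusted p = 0.000743), the adhesion molecule Epcam by 2.73 ± 0.43 (0.00195), the Krüppel-like factor Klf4 by 1.28 ± 0.24 (0.00518) and lymphotoxin beta, Ltb, by 0.81 ± 0.19 (0.0185). Ltb did not pass in capture 1 alone (0.36, edgeR adjusted p = 0.353). The lectin Mgl2, often used with Cd209a to mark these cells, was 0.46 higher with an edgeR adjusted p of 0.256.

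Some of the genes that rose are better known from other lineages, so marker lists of those lineages were read in the same libraries. Klrd1 (chromosome 6, 129591782 to 129598775), which encodes the natural killer receptor subunit CD94, rose by 3.202 ± 0.31 (edgeR adjusted p = 0.000158), from 50.5, 58.3, 27.8 and 8.04 CPM to 467, 406, 220 and 159 CPM. Of the 10 natural killer markers, 3 could be tested and Klrd1 alone rose; it made up 467 of the 533 CPM of the whole list in unimmunized mouse 1, and Ncr1 stood at 7.33, 0, 0 and 0 CPM. Cd8a rose by 5.27 ± 0.57 (edgeR adjusted p = 0.000265), at 205, 96.3, 33.7 and 0 CPM against 3.65, 0, 1.24 and 0.371 CPM, so it was not higher in immunized mouse 2, and led the T cell markers, of which 1 of the 2 tested rose. Cd8a is also a marker of resident type 1 dendritic cells, and its UMIs were found in 9.76% of the members, 58.6% of the Xcr1+ cells and 10.03% of the T cells. Trac was at 3.67, 0, 0.455 and 0 CPM and Cd3e was 0 by the gate. The summed T cell markers were at 252, 117, 47.8 and 16.7 CPM against 83.4, 18.2, 22.5 and 10.9 CPM.

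Bcl11a, Tcf4, H2-Oa and H2-Ob are also expressed by B cells. Of the B cell markers, 3 of 10 were tested, none rose, and the kappa chain Igkc fell (-0.97, edgeR adjusted p = 0.0352). Igkc did not pass in either capture alone (-0.72 and -1.18, edgeR adjusted p = 0.358 and 0.104). It also did not pass without the cells removed below for UMIs of other lineages (-1.10, edgeR adjusted p = 0.0560). Against Flt3 = 0 cells drawn to match the members in UMIs per cell it was at -0.54 and did not pass (0.216). The B cell markers summed to 288, 268, 195 and 157 CPM against 385, 295, 218 and 125 CPM, led by Ighm, and Ms4a1 was at 0 in all 4 Flt3+ libraries. The plasmacytoid markers moved the other way: all 4 that could be tested of the 10 listed rose (Tcf4, Smim5, Ccr9 and Runx2), and the list summed to 1004, 406, 243 and 102 CPM against 129, 135, 84.9 and 59.99 CPM, most of it Tcf4. Siglech, the defining surface marker of plasmacytoid cells, was at 83.1, 0, 5.92 and 1.85 CPM and was found in 17.4% of the members of unimmunized mouse 1. When all cells with a UMI of Siglech, Cd3d, Cd3g, Cd79b, Ms4a1, Clec9a or Fscn1 were removed from both classes, 313 of 7116 genes passed. This fit is called the one without the cells of other lineages, although 1 such UMI does not place a cell in another lineage. It kept 27, 5, 98 and 18 Flt3+ gated cells and 112, 19, 378 and 390 Flt3 = 0 cells, so its libraries were smaller. Of 80 genes examined one by one that had passed, 46 did so there, 30 did not and 4 were too low to test. Zbtb46 (2.23), Bcl11a (2.93), Klrd1 (2.63) and Tcf4 (1.11) passed (edgeR adjusted p from 0.000434 to 0.0118). Klf4 came down to 0.66, Epcam to 2.04 and Lyz1 to -1.07 without passing (edgeR adjusted p = 0.244, 0.225 and 0.225), and Cd8a and Cd209e were among those too low to test.

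In the MHC class II list 3 of 16 genes tested rose (H2-Oa, H2-Ob and H2-DMb2) and 2 fell, against 3.52% and 4.70% of all genes. H2-Oa (chromosome 17, 34092340 to 34095234), a chain of the DO molecule that restrains peptide exchange, was at 236, 261, 229 and 181 CPM against 46.9, 32.8, 43.8 and 31.3 CPM. That was a 5.38-fold higher level (2.43 ± 0.17 on the log2 scale, edgeR adjusted p = 1.51e-05), with every Flt3+ library above every Flt3 = 0 library. Its partner H2-Ob rose by 2.54 ± 0.28 and H2-DMb2, a chain of the exchange catalyst DM, by 1.87 ± 0.21 (edgeR adjusted p = 0.000279 and 0.000288). The proteases Ctss and Lgmn, which trim the invariant chain and antigen, fell (-0.52 ± 0.10 and -1.32 ± 0.23, edgeR adjusted p = 0.00571 and 0.00361). The other 11 of the 16 tested did not pass, among them the DM chain H2-DMb1 (-0.26), Cd74 (0.13), H2-Aa (0.09) and H2-Ab1 (0.12), and the summed list was at 68614, 60840, 64461 and 61450 CPM against 54874, 54694, 57795 and 61488 CPM. In the class I list 2 of 14 fell, H2-K1 (-0.47) and the immunoproteasome subunit Psmb10 (-0.73), and none rose. H2-K1 did not pass in either capture alone (edgeR adjusted p = 0.168 and 0.144).

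Monocyte and macrophage genes were lower in the Flt3+ gated cells. Of 28 tested, 17 fell and none rose, with a median of -1.09 on the log2 scale. Lyz2 (chromosome 10, 117277331 to 117282321) was at 5917, 12341, 11928 and 13485 CPM against 18791, 16706, 25277 and 25919 CPM, a difference of -1.05 ± 0.16 (edgeR adjusted p = 0.00182). The classes did not overlap, but the members still held much Lyz2. Its paralogue Lyz1, which shares reads with it in part, fell as well (-2.13 ± 0.36, edgeR adjusted p = 0.00278). In capture 2 alone Lyz1 did not pass (-1.25, edgeR adjusted p = 0.0921). The transcription factor Cebpb fell (-1.55 ± 0.16, edgeR adjusted p = 0.000238), as did the high-affinity Fc receptor Fcgr1 (-1.72 ± 0.24, 0.00111) and the lipid carrier Apoe (-1.87 ± 0.29, 0.00184). Ly6c2, the gene of the Ly-6C antigen and a near copy of Ly6c1, was also lower, at -1.47 (edgeR adjusted p = 0.003).

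Of 15 growth factor and cytokine receptors tested 6 fell and 1 rose, and of 11 chemokine and lipid receptors 3 fell and 1 rose. Csf1r, the receptor for macrophage colony-stimulating factor, was at 224, 275, 275 and 257 CPM against 436, 496, 446 and 454 CPM, 1.88-fold lower (-0.91 ± 0.13, edgeR adjusted p = 0.000979), and its values in the members were all below those in the Flt3 = 0 cells. Csf3r (-1.38), Csf2rb2 (-0.98), Tgfbr1 (-0.85) and Ifngr1 (-0.83) also fell, and Kit was the receptor that rose. Without the cells of other lineages Csf2rb2, Tgfbr1 and Ifngr1 did not pass (edgeR adjusted p = 0.184, 0.169 and 0.111). Nor did Tgfbr1 and Kit in capture 1 alone (0.226 and 0.0664) or Csf2rb2 in capture 2 alone (0.289). Among the chemokine and lipid receptors Ccr9 rose by 1.66 while Cmklr1 (-2.43), Cxcr4 (-0.86) and Ccr2 (-0.64) fell. Cxcr4 did not pass in either capture alone (-0.79 and -0.87, edgeR adjusted p = 0.0539 and 0.160) or without the cells of other lineages (-0.74, 0.120). Against Flt3 = 0 cells drawn to match the members in UMIs per cell it did not pass either (-0.66, 0.101). Ccr2 did not pass in either capture alone (-0.57 and -0.67, edgeR adjusted p = 0.0771 and 0.0687) or without the cells of other lineages (-0.59, 0.0565). Cmklr1 did not pass in capture 1 alone (-1.82, 0.0621) or without those cells (-1.73, 0.0607), nor Ccr9 in capture 2 alone (1.82, 0.0509). Ccr2, the receptor that brings monocytes out of the bone marrow, was still abundant at 516, 619, 814 and 633 CPM. Pattern recognition receptors gave 7 falls and no rise among 21 tested, with Clec5a (-1.17), Clec4a3 (-1.04), Tlr2 (-0.86) and Clec12a (-0.81). In capture 2 alone Tlr2 and Clec5a did not pass (edgeR adjusted p = 0.179 and 0.109). Tlr2 also did not pass without the cells of other lineages (0.0766) or against Flt3 = 0 cells matched on UMIs per cell (0.0896). Sinus macrophage markers fell in 5 of 8 tested, among them Ccl8 (-3.67), Vcam1 (-2.69) and Siglec1 (-1.23), and the list summed to 109, 48.2, 53.7 and 31.45 CPM against 394, 164, 155 and 151 CPM. Siglec1 did not pass in either capture alone, without the cells of other lineages or against Flt3 = 0 cells drawn to match the members in UMIs per cell (-1.63, -0.68, -1.71 and -1.29, edgeR adjusted p = 0.0636, 0.573, 0.0508 and 0.0836), and Ccl8 did not pass in the last of these (-2.71, 0.219). Of the tingible body macrophage markers tested 1 of 3 fell, the phagocytic receptor Axl (-1.85 ± 0.26, edgeR adjusted p = 0.000979).

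**Figure D2:**
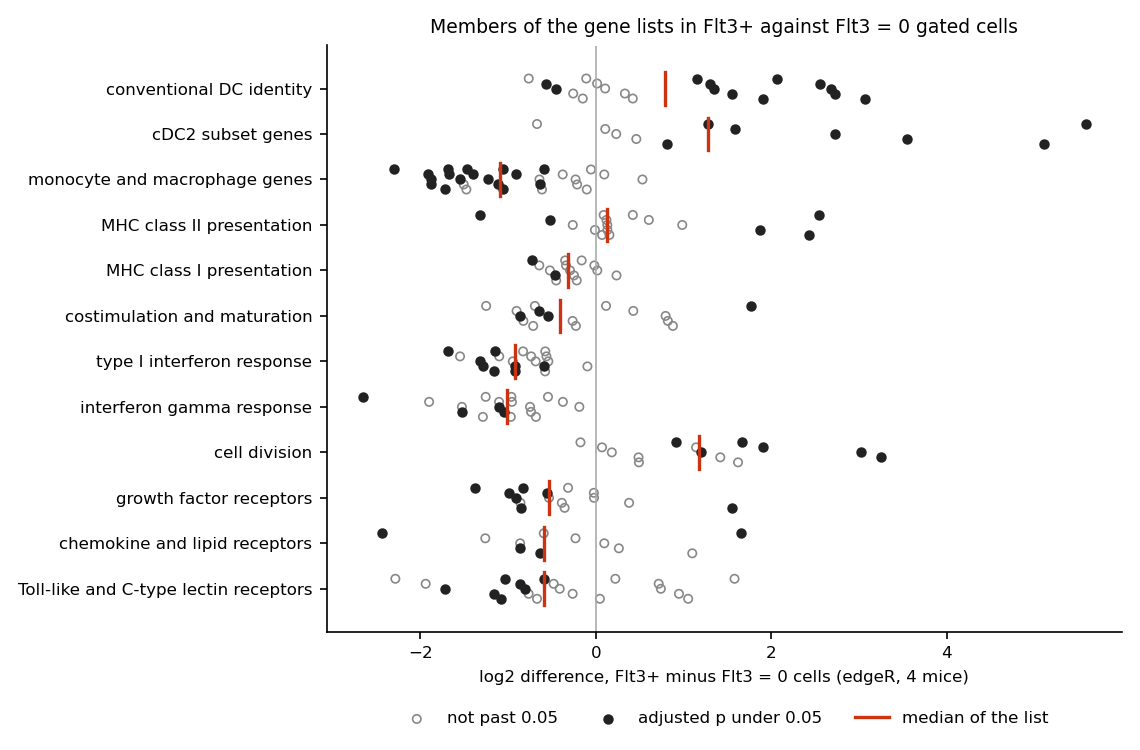
Difference between Flt3+ gated cells and Flt3 = 0 cells on the log2 scale (edgeR, 4 mice) for each tested member of 12 gene lists; filled points passed an adjusted p of 0.05 and the red bar is the median of the list. The medians of the dendritic cell (0.79), subset (1.28) and cell division (1.17) lists lie to the right of 0, and those of the monocyte (-1.09) and both interferon lists (-0.92 and -1.01) lie to the left.

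Of the interferon response genes tested, 8 of 19 in the type I list and 4 of 18 in the interferon gamma list fell and none rose. All 19 of the type I list were fitted below 0 (median -0.92). Isg15, a ubiquitin-like interferon product, was at 74.6, 124, 154 and 168 CPM against 204, 237, 302.1 and 281.5 CPM, a difference of -1.15 ± 0.16 (edgeR adjusted p = 0.000979). In the interferon gamma list all 18 were fitted below 0 (median -1.01), and the chemokine Cxcl10 had the largest fall of those that passed (-2.66 ± 0.39, edgeR adjusted p = 0.00115). Cxcl10 was at 6.11, 13.8, 155 and 107 CPM against 151, 32.8, 271 and 388 CPM, so it was lower within every mouse although the classes overlapped between mice. The transcription factors Irf7 (-1.29) and Irf1 (-1.10) fell. The acute phase gene Saa3 and complement factor B, Cfb, were also among the largest falls (-2.22 and -1.78). In capture 2 alone Cxcl10, Irf1 and Saa3 did not pass (edgeR adjusted p = 0.0768, 0.0618 and 0.485). Irf1 did not pass in capture 1 alone either (0.155). Without the cells of other lineages Irf1 and Saa3 did not pass (0.0711 and 0.0892).

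Of 14 cell division genes tested, 6 rose and none fell (median 1.17), and 11 of the 25 listed were too low to test. Stmn1, which destabilizes microtubules, was at 73.3, 103, 60.1 and 48.1 CPM against 6.69, 3.65, 8.70 and 6.18 CPM, a 9.51-fold higher level (3.25 ± 0.23, edgeR adjusted p = 1.51e-05). Top2a, Mcm2, Mcm6 and Mcm5 rose by 1.91, 1.67, 1.20 and 0.92, and Birc5 by 3.02 from at most 1.40 CPM. These genes rested on few molecules, and without unimmunized mouse 1 the value of Mcm6 was -0.047. In capture 1 alone that of Mcm5 was 0.036 and Mcm2 did not pass (edgeR adjusted p = 0.157). In capture 2 alone Top2a (0.86), Mcm2 (1.93) and Mcm6 (1.14) did not pass (edgeR adjusted p = 0.638, 0.0712 and 0.225) and Birc5 was too low to test. Without the cells of other lineages Mcm2 (1.63), Mcm5 (1.10) and Mcm6 (1.01) did not pass (edgeR adjusted p = 0.108, 0.147 and 0.231). Stmn1 passed in capture 2 alone and without the cells of other lineages (2.85 and 3.58), and was at 3.36 in capture 1 alone. Mki67 (1.62) and Pcna (0.49) did not pass. The cyclin Ccnd1 was 3.94-fold higher (1.98 ± 0.20, edgeR adjusted p = 0.000207). Of the costimulation and maturation genes, Icosl, the ligand of the T cell receptor ICOS, rose by 1.77 ± 0.23 (edgeR adjusted p = 0.000618), while Cd40 (-0.55), Cxcl16 (-0.87) and Marcksl1 (-0.64) fell and 12 of 16 did not pass. Cd40 and Marcksl1 did not pass in capture 1 alone (-0.54 and -0.72), in capture 2 alone (-0.47 and -0.56) or without the cells of other lineages (-0.54 and -0.67). They also did not pass against Flt3 = 0 cells matched on UMIs per cell (-0.54 and -0.59, edgeR adjusted p from 0.0596 to 0.259 over these fits). Cxcl16 did not pass in either capture alone (-0.71 and -1.05, edgeR adjusted p = 0.214 and 0.0700) or without the cells of other lineages (-0.78, 0.215).

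Outside the lists, the largest rise among genes averaging 5 or more in log2 CPM was Adam23, a surface protein of the disintegrin family, at 373, 385, 124 and 64.8 CPM against 37.1, 0, 14.9 and 1.36 CPM (3.64 ± 0.50, edgeR adjusted p = 0.00089). Tbc1d4, a Rab GTPase activator, rose by 1.85 ± 0.30 (edgeR adjusted p = 0.00242). Chchd10, a nuclear gene for a mitochondrial protein, fell (-1.80 ± 0.26, edgeR adjusted p = 0.00113). Of the type 1 markers 6 of 10 were tested: Wdfy4 rose by 1.42 and Ifi205 fell (-1.59). In capture 2 alone Ifi205 did not pass (-1.10, edgeR adjusted p = 0.0534). Clec9a was at 14.7, 13.8, 11.8 and 22.2 CPM in the Flt3+ gated cells against 316, 363, 270 and 102 CPM in the Xcr1+ cells. Of 6 migratory markers tested, Cd200 alone passed, at -1.76. It did not pass in either capture alone (-1.86 and -1.63, edgeR adjusted p = 0.0755 and 0.252) or without the cells of other lineages (-1.46, 0.249). Against Flt3 = 0 cells matched on UMIs per cell it was at -1.23 and did not pass (0.0804). No neutrophil and no mast cell marker was high enough to test; the mast cell list summed to 0, 0, 0.91 and 0 CPM, and the neutrophil list to 4.89, 13.8, 13.2 and 11.1 CPM.

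The antibodies, which the gate did not use, separated the classes at the cell surface. Signals are centred log ratios of the antibody counts of a cell over the 6 antibodies, averaged per mouse. CD11c was at 1.90, 1.78, 1.85 and 1.77 in the Flt3+ gated cells and at 0.776, 1.04, 0.604 and 0.889 in the Flt3 = 0 cells, higher in 4 of 4 mice by 0.995 ± 0.228 (SD, n = 4). Ly-6c, a marker of inflammatory monocytes, was at 1.45, 2.05, 2.08 and 2.07 against 1.88, 2.65, 2.84 and 2.93, lower in 4 of 4 mice at a difference of -0.662 ± 0.186. Both gave p = 0.13 in an exact two-sided sign-flip test over 4 mice, the smallest that this design allows (0.19 adjusted over the 6 antibodies). The lowest CD11c mean of the Flt3+ gated cells was above the highest mean of the Flt3 = 0 cells. The 6 centred log ratios of a cell sum to 0, so the antibodies are not independent of each other. Ly-6g and F4/80 were at mean differences of -0.173 and -0.113 (exact p = 0.13 each), and at -0.253 and -0.024 on log2 mean counts (exact p = 0.25 and 0.75). CD169 and CD68 differed by -0.0375 and -0.00995, with mice on both sides of 0 (exact p = 0.25 and 0.875). Between conditions no antibody of the Flt3+ gated cells passed an exact permutation test over 2 against 2 mice, which cannot go below 0.33; CD169 was at 0.104, -0.324, -0.528 and -0.699, lower in both immunized mice.

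**Figure D3:**
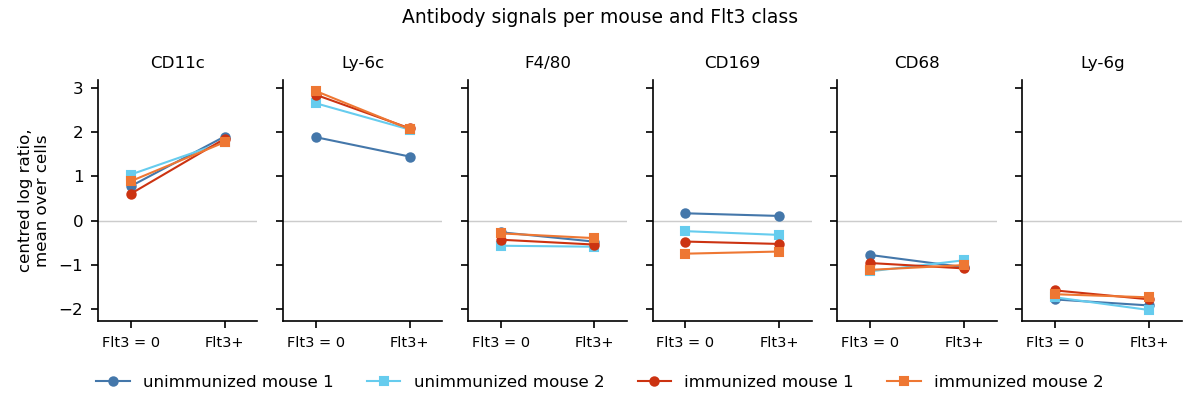
Mean centred log ratio of each antibody in the Flt3 = 0 cells and the Flt3+ gated cells, 1 line per mouse. CD11c lies higher and Ly-6c lower in the Flt3+ gated cells of all 4 mice, while those of CD169 and CD68 rise in some mice and fall in others.

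The Flt3+ gated cells were not uniform, as Lyz2 showed. Its level per cell had 2 heaps: 87 members held under 10 UMIs per 10000 UMIs of the cell and 114 held 100 or more. A limit of 50 per 10000, set after the values were seen, left 149 cells below and 138 above, and what follows describes these sides without a test. Below the limit were 72.5%, 53.8%, 47.4% and 32.4% of the members of the 4 mice (exact 95% intervals 60.4 to 82.5, 25.1 to 80.8, 39.7 to 55.1 and 17.4 to 50.5, for counting error only). The same share was 24.3%, 16.1%, 9.88% and 2.19% in the Flt3 = 0 cells. The low cells still held 1066, 1023, 1551 and 1351 CPM of Lyz2, a level that the limit itself bounds. In the T cells Lyz2 stood at 2361, 4132, 5612 and 4700 CPM.

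**Figure D4:**
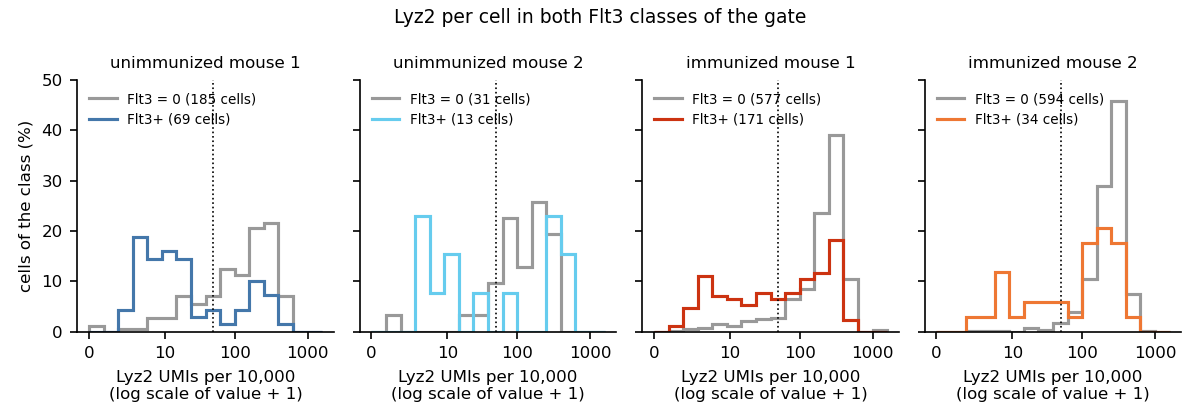
Share of cells (y) by Lyz2 UMIs per 10000 UMIs (x, log scale of the value + 1) in each mouse, for Flt3 = 0 cells in grey and Flt3+ gated cells in colour; the dotted line is at 50. The Flt3 = 0 cells of each mouse lie mostly to the right of the line, and 72.5%, 53.8%, 47.4% and 32.4% of the Flt3+ gated cells lie to its left.

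Zbtb46, Klrd1 and H2-Oa were higher on the low side, while the conventional dendritic cell list as a whole summed to 3752, 3729, 2896 and 2270 CPM in the low members and to 2923, 2684, 2361 and 2207 CPM in the high ones. Zbtb46 was at 109, 106, 65.7 and 61.7 CPM in the low members and at 4.87, 0, 19.9 and 16.6 CPM in the high ones. Klrd1 was at 614, 694, 441 and 392 against 29.2, 0, 39.7 and 44.2 CPM, and H2-Oa at 295, 435, 412 and 263 against 58.5, 16.6, 79.5 and 141 CPM. The low side was higher in every mouse for these 3 genes, and likewise for Bcl11a (352 against 66.5 CPM summed over mice), Cd7 (261 against 21.8) and Stmn1 (110 against 15.3). Ccr2 and Csf1r were higher on the other side, at 1194, 1110, 1195 and 817 CPM and at 482, 398, 378 and 323 CPM against 289, 271, 350 and 258 and 137, 188, 151 and 123 CPM. Clec10a was on both sides, at 292 and 377 CPM. Plasmacytoid markers summed to 1181, 600, 381 and 135 CPM in the low members and to 477, 133, 130 and 85.6 CPM in the high ones. T cell markers summed to 302, 200, 90.0 and 16.8 against 102, 0, 13.2 and 16.6 CPM. Tingible body macrophage markers lay the other way, at 50.6, 35.3, 20.2 and 28.0 against 141, 133, 80.3 and 82.9 CPM. The low side minus the high side was 1.11 ± 0.282 for the CD11c antibody and -1.06 ± 0.103 for Ly-6c (SD, n = 4 mice).

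Against the other dendritic populations of the sort, the Flt3+ gated cells shared Zbtb46 and differed in a set of genes; these values are a description. The 181 Xcr1+ cells and the 186 cells with Ccr7 and Fscn1 held Zbtb46 at 82.4, 73.5, 53.7 and 27.9 CPM and at 57.2, 11.5, 51.8 and 52.8 CPM, both ranges overlapping that of the members. Cd7 was at 314, 110, 106 and 38.9 CPM in the members, at 21.3, 4.59, 10.5 and 13.1 CPM in the Xcr1+ cells and at 0 in the Ccr7+ cells. Klrd1 in the members was above the 38.0, 13.8, 34.1 and 8.195 CPM of the Xcr1+ cells and the 59.1, 195, 46.04 and 38.4 CPM of the Ccr7+ cells in every mouse. H2-Oa was shared with the Xcr1+ cells, at 162, 294, 187 and 103 CPM, and low in the Ccr7+ cells, at 1.91, 11.5, 23.02 and 15.99 CPM. Tcf4 was at 66.7, 64.3, 55.0 and 34.4 CPM in the Xcr1+ cells, below the members of each mouse, and at 30.5, 91.8, 104 and 55.98 CPM in the Ccr7+ cells, likewise below them.

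Siglec1 UMIs were found in 7.67% of the members and 16.4% of the Flt3 = 0 cells, against 4.31% of the Cd3e+ T cells and 28.3% of the C1q-rich macrophages, and Tomato UMIs in 2.44%, 6.78%, 1.495% and 8.41% of these populations, at median depths of 12440, 11725, 6533 and 14504.5 UMIs. After thinning to 2000 UMIs, Siglec1 was at 1.39%, 3.82%, 0.971% and 5.93%. All of these cells were sorted as TOM+, so a missing Tomato UMI does not show that the RNA was missing. The label is permanent, so the sort does not tell whether a cell held Siglec1 RNA. Itgam, which encodes the CD11b of the sort, was at 61.1, 124, 103 and 117 CPM in the members.

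The share of Flt3+ gated cells differed more between the immunized mice than between conditions. They made up 2.44%, 2.42%, 4.22% and 0.720% of the kept cells (exact 95% intervals 1.90 to 3.08, 1.295 to 4.10, 3.62 to 4.89 and 0.499 to 1.00). The immunized mice lay above and below the unimmunized ones, and an exact two-sided permutation test over the 4 mice gave p = 1, where 0.33 is the smallest it can give. Among gated cells of both classes the share was 27.2%, 29.5%, 22.9% and 5.41%, lower in both immunized mice, at a mean difference of -14.2 percentage points (exact permutation p = 0.33). Leaving out immunized mouse 2 gave -5.49 points and leaving out immunized mouse 1 gave -22.9. Once the cells that held UMIs of other lineages were removed, it was -7.63. Thinned to 4000 UMIs per cell, the shares of the gate were 24.2%, 16.1%, 13.02% and 1.87%, and those of the kept cells were 2.13%, 1.29%, 1.88% and 0.157%, with the mice in another order than before thinning. All are shares of sorted CD11b+TOM+ cells, so the gates of the sort bear on them.

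Immunization changed few genes of the Flt3+ gated cells past the test with 2 mice per condition. Of 8558 genes, 9 were higher (0.105%) and 3 lower (0.0351%) in immunized mice, and 1042 had an unadjusted p under 0.05. The genes that rose were Cxcl10, Ms4a6d, Cebpb, Ffar2, Tspo, Hspa8, Ifitm2, Socs3 and Spon1, and those that fell were Lpl, Wdfy4 and Ctnna1. Socs3 and Spon1 had a mean log2 CPM under 5, below the limit for named genes, and are named because the count is small. The count moved with each mouse: without unimmunized mouse 1 or 2, 0 of 9177 and 0 of 9984 genes passed (779 and 1091 at an unadjusted p under 0.05), and without immunized mouse 1 or 2, 248 and 99 passed, the 12 among them each time.

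**Figure D5:**
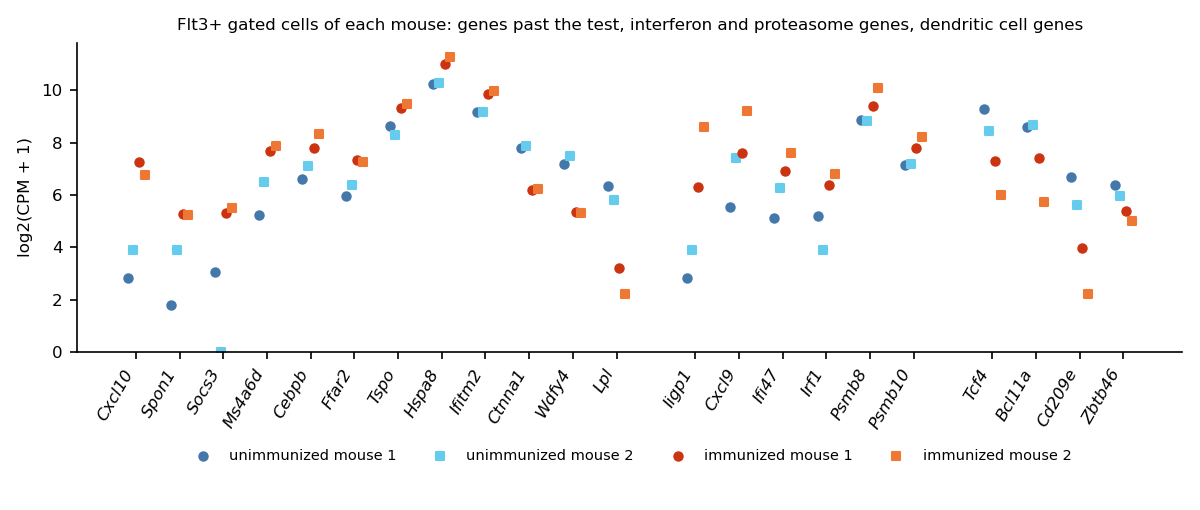
Level in the Flt3+ gated cells of each mouse as log2(CPM + 1), 1 point per mouse, for the 12 genes past the test, for 6 genes of the interferon and proteasome lists and for 4 dendritic cell genes. For the 12 genes and for Iigp1, Cxcl9, Ifi47 and Irf1, both immunized mice lie on the same side of both unimmunized mice, as was so for 18.8% (above) and 24.9% (below) of all genes tested.

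Cxcl10, the interferon-induced ligand of CXCR3, had the largest rise among the genes that passed, from 6.11 and 13.8 CPM in the unimmunized mice to 155 and 107 CPM in the immunized mice, by 4.30 ± 0.67 on the log2 scale (edgeR adjusted p = 0.0328). The unimmunized values rest on few molecules, since 13.8 CPM was 2 UMIs. Ms4a6d, a tetraspanning protein of myeloid cells, rose from 36.7 and 89.4 to 203 and 233 CPM (2.27 ± 0.32, edgeR adjusted p = 0.0202), and Cebpb, a driver of monocyte fate and inflammation, from 96.6 and 138 to 224 and 322 CPM (1.43 ± 0.25, 0.0497). Ffar2, the receptor for short-chain fatty acids, rose from 61.1 and 82.6 to 161 and 154 CPM (1.37 ± 0.22, edgeR adjusted p = 0.0328). The mitochondrial protein Tspo and the chaperone Hspa8 each rose by 1.02 and the restriction factor Ifitm2 by 0.88, with edgeR adjusted p from 0.0295 to 0.0497. Spon1 rose by 3.24, from 2.44 and 13.8 to 37.3 and 37.0 CPM. The cytokine inhibitor Socs3 rose by 2.83, from 7.33 and 0 to 39.1 and 44.4 CPM. The unimmunized values of both genes rest on few molecules.

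Of the 3 genes that fell, Wdfy4 and Ctnna1 were higher in Flt3+ gated than in Flt3 = 0 cells (1.42 and 1.61) and Lpl was lower (-1.76). Wdfy4, needed for cross-presentation by type 1 cells, fell from 143 and 179 to 40.1 and 38.9 CPM (-1.83 ± 0.22, edgeR adjusted p = 0.0115), and alpha-catenin, Ctnna1, from 220 and 234 to 72.8 and 74.0 CPM (-1.50 ± 0.20, 0.0184). Lipoprotein lipase, Lpl, fell from 79.5 and 55.0 to 8.19 and 3.70 CPM (-3.24 ± 0.51, 0.0328). Several dendritic cell genes lay lower in immunized mice without passing the test: Tcf4 at -2.001 ± 0.36 (edgeR adjusted p = 0.0513), Cd209e at -2.78 ± 0.49 (0.0511), Bcl11a at -1.57 ± 0.43 (0.168) and Zbtb46 at -0.93 ± 0.38 (0.343) on the log2 scale. Of the 20 dendritic cell genes none passed, 14 were fitted below 0 and the median was -0.29, against 0.04 for all genes. In 9 of the 20 both immunized mice were below both unimmunized mice, as was so for 24.9% of all genes.

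Interferon gamma response genes stood apart by direction. Of 18 tested Cxcl10 alone passed, but all 18 were fitted above 0, with a median of 1.71 against 0.04 for all genes, and 16 were higher in both immunized mice than in both unimmunized mice, as 18.8% of all genes were. The summed list was at 561, 839, 1376 and 2768 CPM. None of the 18 genes passed the unblocked test of a different response in the Flt3 = 0 cells. The median of that difference was 0.03 on the log2 scale, with 9 genes above and 9 below 0. The GTPase Iigp1 was at 6.11, 13.8, 77.8 and 383 CPM (4.96 ± 1.23, edgeR adjusted p = 0.122) and the chemokine Cxcl9 at 45.2, 172, 193 and 601 CPM (2.42 ± 0.79, 0.242). Immunized mouse 2 was the highest for both genes. The subunits Psmb8 and Psmb10 of the immunoproteasome were 1.05 ± 0.25 and 0.99 ± 0.24 higher (edgeR adjusted p = 0.115 and 0.113), and none of the 14 class I genes passed. In the type I list none of 19 passed, 16 were fitted above 0 and the median was 0.65.

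The make-up of the members differed between the unimmunized and the immunized mice in 2 respects, neither of them tested. Those with low Lyz2 were 72.5% and 53.8% of the members in unimmunized and 47.4% and 32.4% in immunized mice. The intervals of unimmunized mouse 2 and immunized mouse 1 overlapped. The plasmacytoid markers summed to 1004 and 406 CPM in unimmunized and 243 and 102 CPM in immunized mice. The low-Lyz2 share of the Flt3 = 0 cells was also lower in immunized mice (9.88% and 2.19% against 24.3% and 16.1%). Lyz2 was higher in the T cells of both immunized mice too. Whether a shift in Lyz2 level moved cells over the limit was not tested. Without the cells that held UMIs of other lineages, 3 of 7116 genes passed, 2 of them among the 12 (Ms4a6d at 2.83 and Lpl at -4.51). Of the other 10, which did not pass there, Ctnna1 was at -0.57 and Wdfy4 at -1.63, and Cxcl10 was at 3.71, Spon1 at 4.11, Socs3 at 2.32, Ffar2 at 1.66, Cebpb at 1.36, Tspo at 1.14, Ifitm2 at 1.11 and Hspa8 at 1.01 (edgeR adjusted p from 0.102 for Spon1 to 0.608 for Ctnna1). Beyond these values the part of the make-up in the differences was not tested. Within the low-Lyz2 members alone, an analysis added after the data were seen, 8 of 7653 genes passed and 3 of them were among the 12: Ffar2 at 1.79, Ctnna1 at -1.53 and Wdfy4 at -1.54 on the log2 scale. The other 9 did not pass there: Lpl was at -4.89, Spon1 at 3.42, Cxcl10 at 3.18, Socs3 at 2.94, Ms4a6d at 2.02, Cebpb at 1.45, Ifitm2 at 0.89, Tspo at 0.72 and Hspa8 at 0.52 (edgeR adjusted p from 0.0708 for Lpl to 0.444 for Tspo). The interferon gamma list summed to 490, 353, 925 and 1889 CPM in the low members and to 775, 1524, 1745 and 3201 CPM in the high ones, so both sides were higher in the immunized mice.

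No gene showed a different response to immunization in the Flt3 classes in the unblocked test of the interaction: 0 of 8558 genes passed in edgeR (0%) and 0 in DESeq2, with 354 and 75 at an unadjusted p under 0.05. With the mouse as a block, 60 genes passed (0.701%), 43 of them with a larger value in the Flt3+ gated cells, on p-values with the limit given above. The blocked value of Cxcl10 was 3.05 larger in the Flt3+ gated cells, and the Flt3 = 0 cells of unimmunized mice held 151 and 32.8 CPM, while its unimmunized levels in the Flt3+ gated cells rest on 5 and 2 UMIs. Ctnna1 fell in the Flt3+ gated cells but was at 40.2, 32.8, 46.5 and 38.6 CPM in the Flt3 = 0 cells, a difference of -1.70. For Tcf4 and Wdfy4 the blocked difference was -1.41 and -1.27, again lower in the Flt3+ gated cells.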

How the data were processed

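Per the labels and the study's methods, the authors aligned and counted reads with Cell Ranger 4.0.0 on mm10, combined the 2 captures into 1 matrix, and counted hashtags and antibodies with CITE-seq-count. The deposited values are raw counts of UMIs per barcode for genes, 4 hashtags and 6 antibodies. Whether depth was evened out when the captures were combined was not stated.

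Of 18662 barcodes, 12139 were kept: mitochondrial genes at most 25% of UMIs, a barcode sequence seen in 1 capture (621 sequences, 1242 barcodes, were in both), and 1 hashtag with at least 10 UMIs and 80% of the hashtag UMIs. The hashtag rule removes doublets between mice, while doublets within a mouse were not removed and no doublet caller was run. Kept cells numbered 2828, 537, 4052 and 4722 per mouse. The mouse was the replicate; the captures hold the same mice and were summed.

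Counts were summed per mouse and class (8 libraries) and fitted with edgeR 4.0.16 (R 4.3.3): filterByExpr, TMM, quasi-likelihood test, Benjamini-Hochberg adjustment, gate genes left out. Differences are log2 values from this fit, with their SE. Groups of condition and Flt3 class shared 1 estimate of the spread (4 residual degrees of freedom). Because the classes come from the same mice, the libraries are paired by animal; class deviations of the same mouse correlated at 0.0589 (unimmunized) and 0.512 (immunized), and a fit with the mouse as a replicate block was run beside the unblocked one. On simulated counts with 200 changed genes the Flt3 class comparison recovered 56% at a log2 change of 1 and 94.5% at 2, and the immunization comparison 23% and 77.5%. For antibodies the centred log ratio of each cell was taken over the 6 counts, each with 1 added. Exact Clopper-Pearson intervals cover counting error only.

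Named genes were up to 6 per list in order of adjusted p, and the 8 largest rises and falls among genes averaging 5 or more in log2 CPM; genes named beyond these were chosen after their values were seen. The members and the lists were chosen with earlier results of these data known. Gene positions are from GENCODE M21. Alternatives were DESeq2 1.42.0, library size scaling, no filter, left-out mice, single captures, other gates and thinning; the analysis of low-Lyz2 members was added after the data were seen. Marchf1, Mx1, Clec6a and Clec7a were not analysed here. Some genes that the naming rule picks are not reported here.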

Additional observations from a re-analysis of the deposited data

Results flagged for a closer look

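In the fit with the mouse as a block, 10 of the genes named above had a difference between the Flt3 classes in their response to immunization (adjusted p under 0.05, edgeR), which the unblocked fit did not show. That fit has 2 residual degrees of freedom and 1 spread shared by all genes along their abundance trend, so its p-values do not draw on the spread of a single gene between mice. On the log2 scale the response of Cxcl10 was larger in the Flt3+ gated cells by 3.05, that of the GTPase Iigp1 by 2.11, that of Itgax by 0.92 and that of the lectin Clec4a3 by 0.77. The response was lower in the Flt3+ gated cells for the chemokine receptor Ccr9 (-2.25), the actin bundler Fscn1 (-1.96), Lpl (-1.74), Ctnna1 (-1.70), Tcf4 (-1.41) and Wdfy4 (-1.27). Unimmunized levels of Cxcl10 in these cells rest on 5 and 2 UMIs. Ccr9 in the Flt3+ gated cells went from 92.9 and 20.6 CPM to 16.4 and 1.85 CPM.

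Of 404 barcodes that met the gate and held Flt3, 30 were left out because their sequence occurred in both captures and 87 because no single hashtag reached the limits. These barcodes belong to no mouse by the rule and entered no comparison.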

How the results depend on the processing

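The comparison of Flt3+ gated with Flt3 = 0 cells called 703 genes, and 7 of 18 alternatives gave a count within 1.5 times of that. DESeq2 called 392 (386 of them among the 703), no filter 1183, Flt3 of at least 2 UMIs 1098, a hashtag share of 95% 348, capture 1 alone 392 (without the Flt3+ library of unimmunized mouse 2, which had 4 cells there), capture 2 alone 268, no cells with other lineage UMIs 313, and the gate after thinning to 4000 UMIs 172. Leaving out 1 mouse gave 0 to 804 genes. The samples are paired by mouse: with the mouse as a replicate block 1444 genes passed, and 60 for the interaction. Of 80 genes examined one by one that passed, 1 changed direction in any alternative, Mcm6 without unimmunized mouse 1 (range -0.047 to 1.49), and none of the 80 passed without that mouse. Fscn1, which did not pass (0.80), ranged from -0.29 (without immunized mouse 1) to 2.00 with 1 mouse left out. Of the 80 genes that passed, 48 did so in capture 2 alone, 31 did not and 1 was too low to test. Against Flt3 = 0 cells matched on UMIs, 66 passed, 13 did not and 1 was too low to test.

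For immunization, with 12 genes called, DESeq2 gave 54 (10 of the 12), no filter 304, only the Flt3+ libraries 148, Flt3 of at least 2 UMIs 2, capture 2 alone 3, no cells with other lineage UMIs 3, and thinning 0 (257 at an unadjusted p under 0.05). A hashtag share of 95% gave 16, with 8 higher, 8 lower and 6 of the 12 among them. Capture 1 alone lacked the Flt3+ library of unimmunized mouse 2, so its count is not compared here. Leaving out 1 mouse gave 0 to 248. With library size scaling the split was 5 higher and 9 lower. Cd209d ranged from -5.31 to 0.23 when 1 mouse was left out, the last without unimmunized mouse 1. The interaction gave 25 genes without a filter and 0 to 7 when 1 mouse was left out.

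The mean share among kept cells differed by 0.0397 points between conditions and turned sign with a hashtag share of 95% (-0.494), Flt3 of at least 2 UMIs (-0.469), C1q of at most 1 (-0.316), capture 2 alone (-0.176) and thinning (-0.688), and ranged from -1.71 to 1.79 with 1 mouse left out. The share of the gate and the CD11c, Ly-6c and Ly-6g differences kept their direction in every alternative. CD169 turned with Flt3 of at least 2 UMIs (0.152), capture 2 alone (0.0161) and thinning (0.132). CD68 turned with a hashtag share of 95% (0.153), Flt3 of at least 2 UMIs (0.0351), capture 2 alone (0.00128) and log2 counts (0.0771), ranging from -0.0964 to 0.0787 with 1 mouse left out. F4/80 turned with a hashtag share of 95% (0.00573) and without other lineage UMIs (0.0109). For all of these changes the cause was not tested. Depth limits unimmunized mouse 2 most, where 3 UMIs were 20.6 CPM.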
